A study of Mus musculus with 4 samples.

Results

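The non-coding small nucleolar RNA (snoRNA) host genes are long RNA genes whose introns carry snoRNAs. Of a list of 10 such genes (Gas5, Snhg1, Snhg3, Snhg4, Snhg5, Snhg6, Snhg8, Snhg12, Snhg15 and Epb41l4aos), 9 could be matched by Ensembl identifier to the count table of 47643 genes, and all 9 were among the 9608 genes with at least 10 counts in total that were tested. Snhg4 was not matched and has no value here. The RNA came from CD4+ T cells sorted from the spleens of mice of the genotype Tg4 Nr4a3-Tocky IL-10 GFP, 24 h after 4 mg/kg of the peptide [4Y]-MBP, given subcutaneously. All the mice, of both populations, carried each of these elements. Tg4 is a transgenic T cell receptor for a peptide of myelin basic protein. Nr4a3-Tocky is a Timer protein whose expression follows Nr4a3, a gene switched on by T cell receptor signalling. The GFP element reports Il10. Both sorted populations were Timer+, and they were split by the Il10 reporter into Il10-EGFP+ and Il10-EGFP- cells, with 2 libraries of each. Mice of both sexes were used in the study, and no age was found in the sources used here.

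As background, snoRNAs are cut from the introns of their hosts and, bound to protein, guide chemical changes of ribosomal RNA. Box C/D snoRNAs guide ribose methylation with fibrillarin, and box H/ACA snoRNAs guide pseudouridine formation with dyskerin. The spliced exons of many non-coding hosts hold no long reading frame, begin with a pyrimidine tract like that of ribosomal protein mRNAs, and are broken down during translation by nonsense-mediated decay. Gas5 was first known as a transcript that accumulates in growth-arrested cells.

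The 4 libraries held 730330 and 686773 counts in Il10-EGFP- cells and 644679 and 700177 in Il10-EGFP+ cells, so that 1 count was worth 1.36 to 1.58 CPM, the counts scaled to a common library size. The libraries were made by a 3′ end method in which a transcript gives reads from its end only, and levels were therefore not divided by gene length. T cell markers were present in every library, with a summed level of 3738 to 4646 CPM over 10 genes. Markers of B cells and myeloid cells moved with the groups, while the 5 CD8 T or NK cell markers tested did not. These 5 summed to 39.4 and 64.2 CPM in Il10-EGFP- and 50.7 and 62.0 CPM in Il10-EGFP+ libraries, with 0 called. The 8 B cell markers that were tested summed to 113 and 159 CPM in Il10-EGFP- and 431 and 508 CPM in Il10-EGFP+ libraries, 4 of them with an adjusted p under 0.05, and no B cell marker was at 0 in every library. The 9 myeloid markers tested summed to 110 and 139 CPM against 382 and 206 CPM, with 2 of them called higher, while Adgre1 and Cd14 were at 0 throughout. Their part in the results on the host genes was not tested. Fewer cells of a type and less RNA per cell cannot be told apart in such sorted bulk samples.

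All 9 host genes had a lower estimated level in Il10-EGFP+ than in Il10-EGFP- T cells, and 1 of them, Snhg15, passed the test. For the 9 genes the log2 fold change ran from -0.95 for Snhg15 to -0.02 for Snhg8, with a median of -0.29, beside a median of 0.00 over all genes tested. Of all 9608 genes tested, 4804 had a value below 0. Gas5, Snhg6 and Snhg8 were not stable in this respect, since their sign turned when single libraries were left out. With edgeR's quasi-likelihood test, 4.09% of all genes had an adjusted p under 0.05, 1.74% with a lower and 2.35% with a higher level in Il10-EGFP+ T cells, against 1 of 9 host genes called lower and 0 called higher. For 6 of the 9 (Snhg1, Snhg3, Snhg5, Snhg12, Snhg15 and Epb41l4aos) both Il10-EGFP+ libraries lay below both Il10-EGFP- libraries, which held for 22.3% of all genes and for 25.2% of those that averaged 20 counts or more. At an unadjusted p under 0.05, edgeR placed 3 host genes lower and none higher, and of all 9608 genes 720 lower and 765 higher. DESeq2 and limma on the deposited rlog values called 0 of the 9, where they called 1.17% and 2.06% of all genes. They placed 3 and 5 of the 9 at an unadjusted p under 0.05, for which their share of all genes is not given here.

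**Figure D1:**
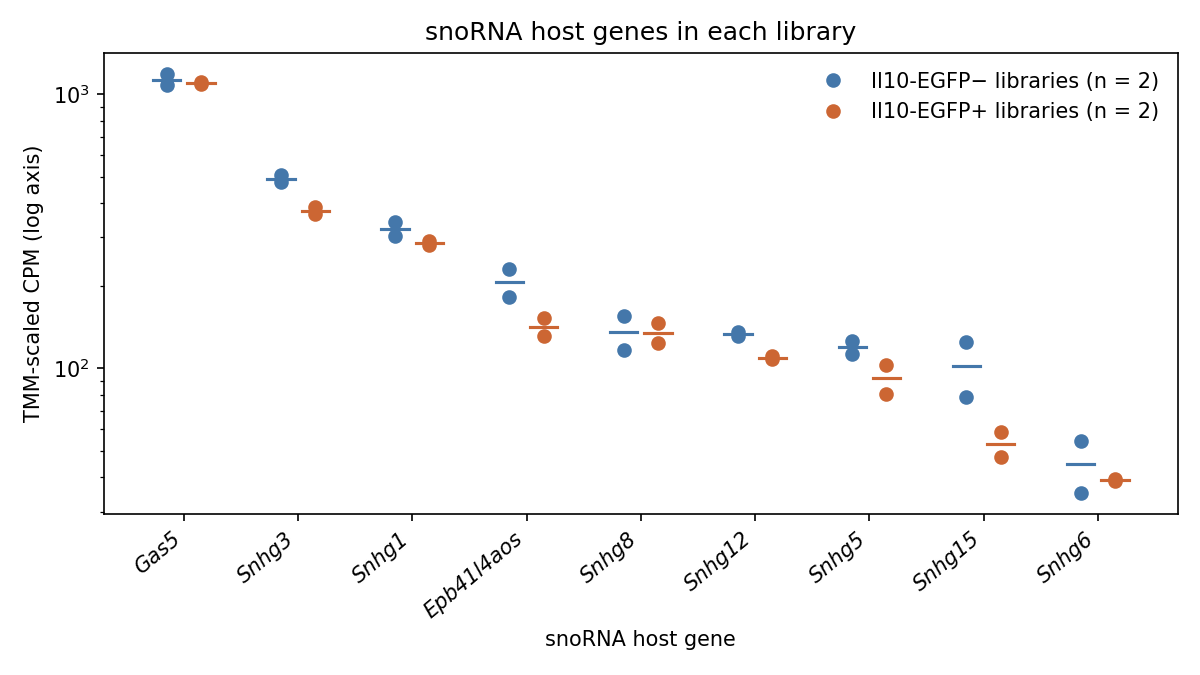
Level of each of the 9 measured host genes in every library, in TMM-scaled CPM; on a log axis. Points are the 2 Il10-EGFP- and the 2 Il10-EGFP+ libraries and bars their means; Gas5 has the highest level in every library, and the points of the populations overlap for Gas5, Snhg6 and Snhg8.

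Snhg15 carries the H/ACA snoRNA Snora9 and is a short-lived host transcript. Its Il10-EGFP- libraries held 92 and 54 counts and its Il10-EGFP+ libraries 37 and 33. The first Il10-EGFP- library was the highest, and the groups did not overlap. The level went from 102 ± 32.6 to 53.1 ± 7.79 CPM (SD, n = 2 each), a log2 fold change of -0.95 (standard error 0.26, 95% interval -1.48 to -0.42) with an edgeR adjusted p of 0.0254. Leaving out Il10-EGFP- replicate 1 gave a log2 fold change of -0.57 with an adjusted p of 0.477. Leaving out Il10-EGFP+ replicate 2 gave -0.80 with an adjusted p of 0.187. The end of the Snhg15 transcripts shares sequences of 50 bases with 49 other genes, of which 37 had a count, so that some of its reads may have been assigned elsewhere. The gene lies at chr11:6525591-6528760 on the minus strand of GRCm38. Its snoRNA, shown because it is the one carried by the called host, is given 5′ to 3′ as DNA letters from the GENCODE M21 transcripts, with the H box (ANANNA) and the ACA box in capitals. It lies at chr11:6528033-6528165 on the same strand.
Snora9: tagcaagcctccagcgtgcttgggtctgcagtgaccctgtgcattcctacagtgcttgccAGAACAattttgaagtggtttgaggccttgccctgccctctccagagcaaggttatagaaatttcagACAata

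Epb41l4aos had the next largest difference and did not pass the test. Its counts were 169 and 125 against 96 and 91, Il10-EGFP- libraries first, without overlap. The level was 206 ± 33.2 CPM against 142 ± 14.7 CPM (SD, n = 2 each), a log2 fold change of -0.54 (standard error 0.19, 95% interval -0.92 to -0.17) with an edgeR adjusted p of 0.0874. The snoRNA inside it, Gm23639, had 40, 16, 17 and 25 counts in the Il10-EGFP- and then the Il10-EGFP+ libraries, and these values overlapped.

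Snhg3 is the host of Snora73a and Snora73b, the U17 snoRNAs, which act in the cutting of the ribosomal RNA precursor instead of guiding a modification. The Il10-EGFP- libraries held 373 and 327 counts of Snhg3 and the Il10-EGFP+ libraries 230 and 268. No Il10-EGFP+ library reached the lower Il10-EGFP- library. The level was 492 ± 20.6 CPM and 376 ± 15.7 CPM (SD, n = 2 each), and the log2 fold change -0.39 (standard error 0.14, 95% interval -0.67 to -0.10) and an edgeR adjusted p of 0.117. The end of Snhg3 shares 59 sequences of 50 bases with Rcc1, whose exons overlap it on the same strand, so that the reads of these genes are not fully separable.

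Snora73b, which lies in an intron of Snhg3, was counted as a gene of its own, at 155 and 171 against 105 and 135 counts in the same order. These groups did not overlap either, and the log2 fold change was -0.34 (95% interval -0.69 to 0.01, edgeR adjusted p = 0.340). Its near copy Snora73a, which overlaps a host exon, had 2, 2, 0 and 0 counts and was not tested. The sequences are identical at 198 of 205 bases (96.6%), so that reads of the pair could be misplaced. They are shown because Snora73b was the snoRNA with the most counts in any host, and are given as DNA letters from GENCODE M21 on the minus strand of GRCm38, with the H box (ANANNA) and the ACA box in capitals. Snora73a lies at chr4:132352775-132352979 and Snora73b at chr4:132352322-132352526. Counted from 1 at the 5′ end, with the base of Snora73a first, the differences are G3A, G54A, A111G, T164C, G203A, T204A and T205A.
Snora73a: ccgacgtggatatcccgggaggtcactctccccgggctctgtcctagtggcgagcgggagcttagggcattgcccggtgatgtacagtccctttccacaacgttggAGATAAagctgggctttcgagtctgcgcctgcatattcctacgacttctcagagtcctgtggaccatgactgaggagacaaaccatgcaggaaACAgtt
Snora73b: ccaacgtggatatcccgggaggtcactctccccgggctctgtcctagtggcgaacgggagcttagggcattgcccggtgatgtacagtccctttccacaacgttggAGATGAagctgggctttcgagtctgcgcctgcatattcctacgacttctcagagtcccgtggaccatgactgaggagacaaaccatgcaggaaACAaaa

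Most of the snoRNAs themselves had no count. Inside the 9 hosts the annotation places 31 snoRNA genes, 10 of them in Gas5 and 8 in Snhg1, and 26 of the 31 had no count in any library. Of the 28 that overlap an annotated host exon, 26 had no count, while the 3 that lie in introns alone (Snora73b, Gm23639 and Snord87) all had counts. Snord87, in Snhg6, had 8, 1, 2 and 1 counts.

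Snhg5, Snhg12 and Snhg1 also had lower values without overlap and did not pass the test. Snhg5, the host of the box C/D pair Snord50a and Snord50b, had 83 and 86 against 65 and 56 counts, Il10-EGFP- libraries first, a log2 fold change of -0.38 (95% interval -0.82 to 0.07, edgeR adjusted p = 0.438). The end of Snhg5 shares up to 99 sequences of 50 bases with another gene. Snhg12, which carries Snora16a, Snora44, Snora61 and Snord99, had 100 and 90 against 68 and 77 counts, a log2 fold change of -0.29 (95% interval -0.70 to 0.13, edgeR adjusted p = 0.560). Snhg1, the host of Snord22, had 223 and 235 counts against 184 and 195, a log2 fold change of -0.17 (95% interval -0.48 to 0.14, edgeR adjusted p = 0.677). For these 3 genes the interval of the difference includes 0.

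Gas5, Snhg6 and Snhg8 had values that overlapped between the populations. Gas5, the most abundant host, had 793 and 812 against 690 and 766 counts. After scaling, it was at 1131 ± 76.6 CPM and 1099 ± 8.32 CPM (SD, n = 2 each), and both Il10-EGFP+ libraries lay between the Il10-EGFP- ones. The log2 fold change was -0.04 (95% interval -0.29 to 0.21, edgeR adjusted p = 0.940). Leaving out Il10-EGFP- replicate 2 turned it to 0.03. Snhg8, the host of Snora24, had 114 and 80 against 92 and 86 counts, with a log2 fold change of -0.02 (95% interval -0.42 to 0.39) that turned to 0.21 without Il10-EGFP- replicate 1 and to 0.10 when Il10-EGFP+ replicate 2 was left out. Snhg6 had the fewest counts, 40 and 24 against 25 and 27, and its log2 fold change of -0.19 (95% interval -0.86 to 0.48) was 0.17 without Il10-EGFP- replicate 1.

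**Figure D2:**
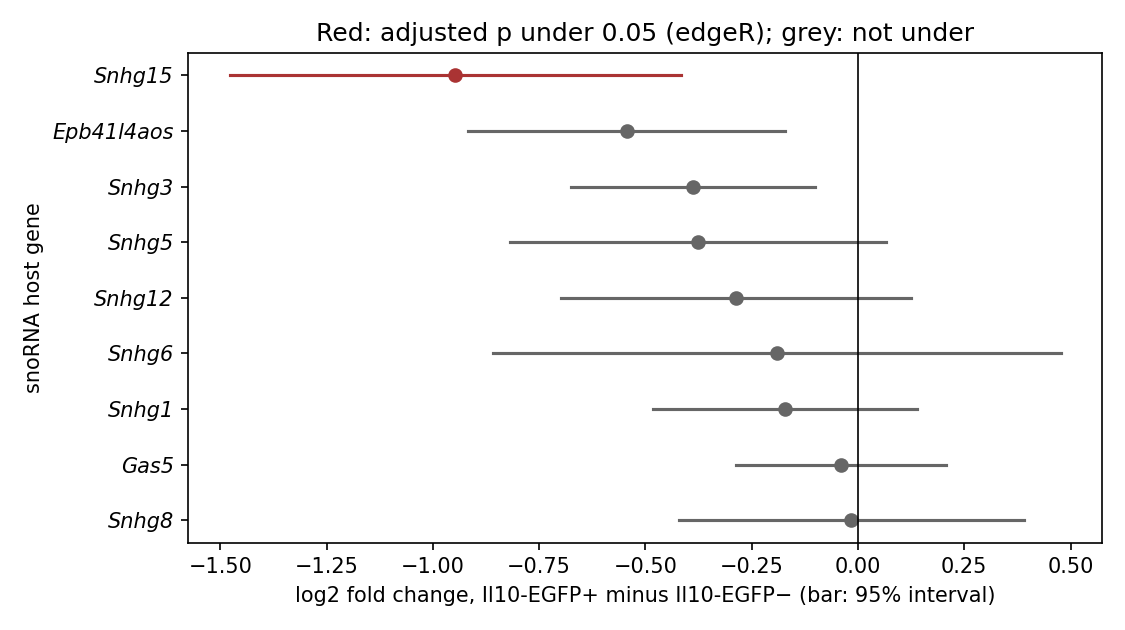
log2 fold change of each host gene, Il10-EGFP+ minus Il10-EGFP-, with its 95% interval from edgeR; red marks an adjusted p under 0.05 and the vertical line 0. Snhg15, Epb41l4aos and Snhg3 have intervals below 0, of which Snhg15 alone has an adjusted p under 0.05, and the other 6 intervals include 0.

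Gas5 made up a large part of the summed level of the hosts. The 9 genes summed to 2697 and 2674 CPM in Il10-EGFP- and to 2356 and 2307 CPM in Il10-EGFP+ libraries, a difference of -13.2% between the means, which was larger than the spread within either population (SD 16.3 and 34.6 CPM). The share of Gas5 in this sum was 39.9% and 44.3% against 46.4% and 47.9%. Without Gas5 the sum was 1621 and 1490 CPM against 1263 and 1202 CPM. Among the 2609 genes that averaged 50 counts or more, those whose centred log2 CPM over the 4 libraries lay closest to that of Gas5 included Rps29 (Euclidean distance 0.0356), Actr10 (0.0412), mt-Nd1 (0.0426) and Rpl18 (0.0463), of which Rps29 and Rpl18 encode ribosomal proteins.

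A pyrimidine tract at the start of a transcript marks the mRNAs of the translation machinery, and the host genes are known for it. A tract was counted where a C followed by at least 4 letters C or T began within 10 bases of a RefSeq start, on the transcript strand alone. Of the 7 measured hosts with a RefSeq window, 5 held one (71.4%), against 60.3% of 58 ribosomal protein genes and 34.4% of all 27025 genes with a window. The called gene, Snhg15, and Snhg1 had none under this definition, and Gas5 had one at its downstream start only. The windows are shown to set the tract beside the fold changes, 15 bases before and 15 from the start, 5′ to 3′ with the tract in capitals, from RefSeq on GRCm38.p6. They lie at chr1:161035151-161035180 on the plus strand for Gas5, chr3:123508322-123508351 on the minus strand for Snhg8, chr4:132308663-132308692 on the plus strand for Snhg12, chr4:132353672-132353701 on the minus strand for Snhg3, chr9:88522883-88522912 on the minus strand for Snhg5, chr11:6528746-6528775 on the minus strand for Snhg15 and chr19:8723472-8723501 on the plus strand for Snhg1.
Gas5: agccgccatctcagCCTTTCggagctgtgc
Snhg8: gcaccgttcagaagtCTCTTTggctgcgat
Snhg12: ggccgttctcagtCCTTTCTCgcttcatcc
Snhg3: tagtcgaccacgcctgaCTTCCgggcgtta
Snhg5: gagctgcggtgaaccgggctcgttCTTTTa
Snhg15: cgctgctgtgaccgtaactttaagcacacg
Snhg1: gttgttcttgtcggcctcatttttccttgt

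Several hosts start or lie within 1000 bases of a protein-coding gene, and these neighbours were looked at after their values were known. Slc3a2, the heavy chain of amino acid transporters, starts on the opposite strand with a gap of 106 bases to Snhg1. It had 158 and 104 against 76 and 77 counts and was called lower, its log2 fold change being -0.67 (standard error 0.20, edgeR adjusted p = 0.0405), where Snhg1 had -0.17. This call was lost when Il10-EGFP- replicate 1 or either Il10-EGFP+ library was left out. Whether the pair differed from each other was not tested. Rcc1, the exchange factor of Ran, which overlaps Snhg3, had 217 and 165 against 130 and 135 counts (log2 fold change -0.42, edgeR adjusted p = 0.170). Trnau1ap, next to Snhg12 at a gap of 739 bases, had 70 and 54 against 40 and 38 counts (log2 fold change -0.56, edgeR adjusted p = 0.267). Zbtb37, which starts opposite Gas5, had 15, 9, 12 and 11 counts, which overlapped, and Epb41l4a had none in any library.

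**Figure D3:**
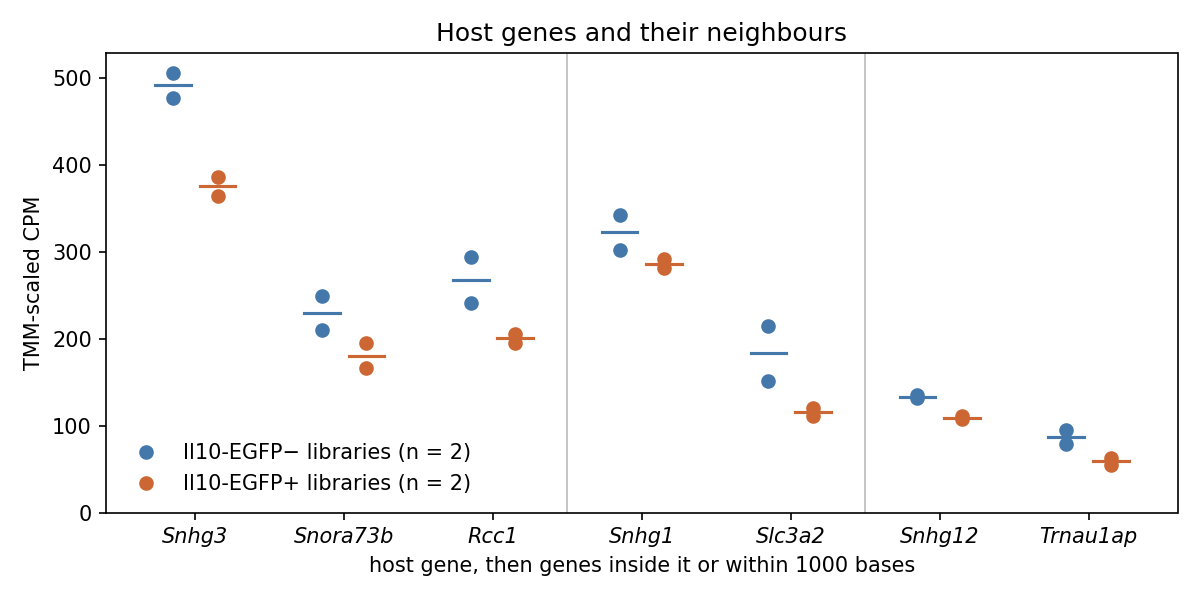
Level in every library, in TMM-scaled CPM, of Snhg3, Snhg1 and Snhg12 and of the nested snoRNA or protein-coding neighbour counted beside each; points are the 2 Il10-EGFP- and the 2 Il10-EGFP+ libraries and bars their means. All 7 genes have both Il10-EGFP+ points below both Il10-EGFP- points, as did 22.3% of all genes tested. The neighbours were picked with their values known, and Zbtb37, Gm23639 and Snord87, whose values overlapped, are not shown.

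Ribosomal protein genes had values centred near 0. Of 79 cytosolic ribosomal protein genes, 1 was called higher (Rps4x, log2 fold change 0.98, edgeR adjusted p = 0.00304, a call lost without Il10-EGFP+ replicate 2) and 0 were called lower, with 0 lower at an unadjusted p under 0.05. DESeq2, which gave no adjusted p for 2 genes, and limma called 0 of the 79. Their median log2 fold change was 0.01, and both Il10-EGFP+ libraries were below both Il10-EGFP- libraries for 7 of the 79. Their summed level was 77120 and 86130 CPM against 78820 and 84160 CPM, so that the groups overlapped.

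Many genes whose proteins bind snoRNAs or work in the nucleolus were lower in Il10-EGFP+ T cells. Of 23 snoRNP proteins and assembly factors, 7 were called lower and 0 higher, 22 had a value below 0, and the median log2 fold change was -0.56. Dkc1, the dyskerin pseudouridine synthase, had 991 and 922 counts against 552 and 549 (log2 fold change -0.69, edgeR adjusted p = 0.000207). Its H/ACA partners Nop10, Gar1 and Nhp2 and the assembly factor Naf1 were also called, as were Rrp9, the U3 snoRNP protein (log2 fold change -1.69), and Nop58 of the box C/D particle (log2 fold change -0.47). Nop56, the partner of Nop58, had a log2 fold change of -0.54 with an adjusted p of 0.0614, and Fbl, the methyltransferase fibrillarin, had -0.58 with an adjusted p of 0.375. With single libraries left out, 3 of the 23 were called without Il10-EGFP- replicate 1 and 4 without each of the others.

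Of 71 genes of nucleolar ribosome assembly and RNA polymerase I, 22 were called lower and 0 higher, 67 had a value below 0, and the median log2 fold change was -0.54. Examples are Wdr43 with -0.98, Gnl3 (nucleostemin) with -0.82, Ubtf, the upstream binding factor of RNA polymerase I, with -1.21, and Npm1 (nucleophosmin) with -0.43 (edgeR adjusted p = 0.0163), whose call was kept only when Il10-EGFP- replicate 1 was left out. Ncl, nucleolin, which like several of these genes carries snoRNAs in its introns, had a log2 fold change of -0.33 with an adjusted p of 0.0845. The 22 calls came to 13 when Il10-EGFP- replicate 1 was left out, to 14 for Il10-EGFP+ replicate 1 and to 10 for Il10-EGFP+ replicate 2. The difference between these lists and the non-coding hosts was not tested.

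**Figure D4:**
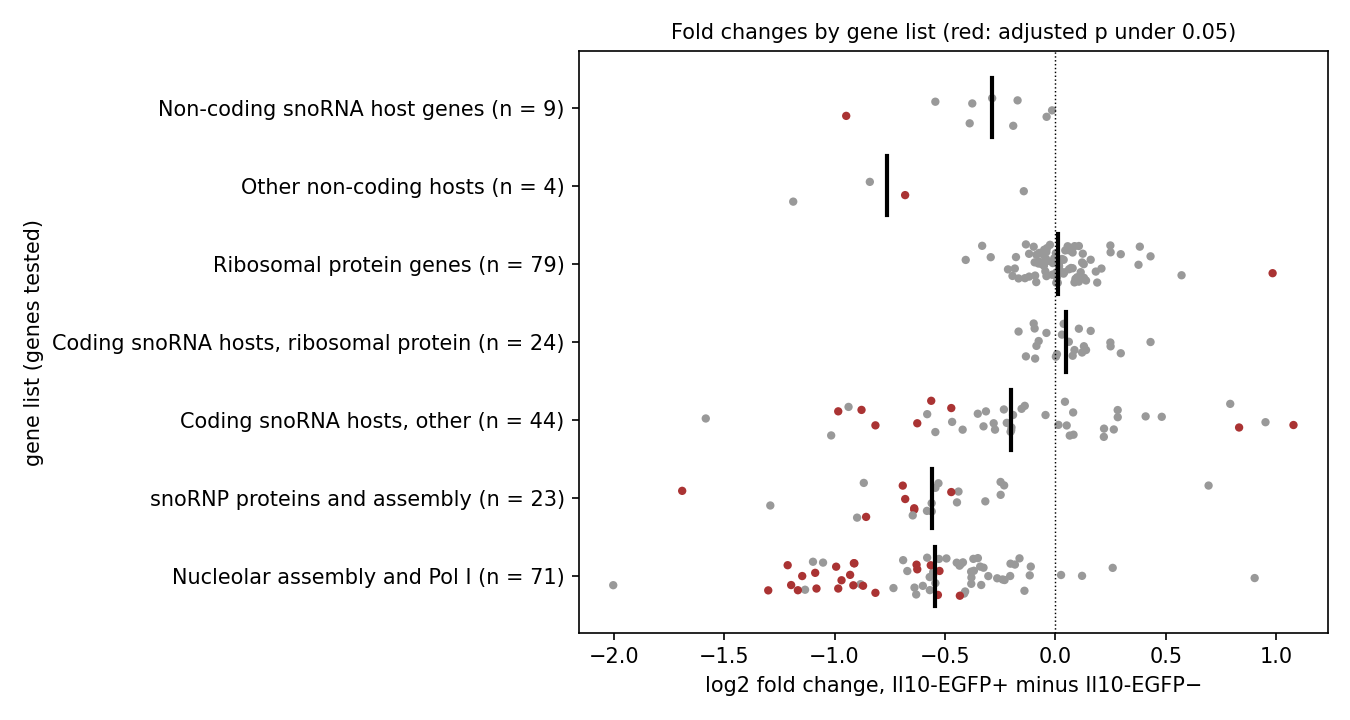
log2 fold change of every gene tested in the non-coding host list and in 6 comparison lists; each point is a gene, red points have an edgeR adjusted p under 0.05, and the black bar is the median of the list. The ribosomal protein genes lie around 0 with a median of 0.01, the hosts have a median of -0.29, and the snoRNP and nucleolar lists have medians of -0.56 and -0.54.

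Other snoRNA hosts were set beside the 9. Of 12 further non-coding hosts 4 could be tested. All 4 had both Il10-EGFP+ libraries below both Il10-EGFP- libraries, as did 22.3% of all genes tested. Snhg9 was called, with 163 and 150 counts against 104 and 77 (log2 fold change -0.68, edgeR adjusted p = 0.0240), a call that was lost without Il10-EGFP- replicate 1, Il10-EGFP- replicate 2 or Il10-EGFP+ replicate 2. Its exons overlap Rps2 on the opposite strand, and with the strand option of the counting not stated, reads of these genes cannot be told apart. Zfas1 had a log2 fold change of -0.14, Snhg17 of -1.19 (edgeR adjusted p = 0.106) and Snhg20 of -0.84 (edgeR adjusted p = 0.279). Among 68 protein-coding genes with a snoRNA inside them, 6 were called lower (Wdr43, Gnl3, Sf3b3, Nop58, Snx5 and Tsr1) and 2 higher (Ncapd2 and Chd8). Over all genes tested, 4.09% were called. Wdr43 and Gnl3 were also counted among the nucleolar genes above, and Nop58 among the snoRNP genes. The 24 of the 68 that encode ribosomal proteins had a median of 0.05 and 0 calls, with 1 higher and 0 lower at an unadjusted p under 0.05. The other 44 had a median of -0.20. The 8 calls among the 68 came to 5 when Il10-EGFP- replicate 2 was left out, to 4 for Il10-EGFP+ replicate 1 and to 5 for Il10-EGFP+ replicate 2.

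Genes of pathways that act on host transcripts were set beside all genes tested, of which edgeR called 4.09%. Of 24 nonsense-mediated decay genes edgeR called 0, with 3 lower at an unadjusted p under 0.05. DESeq2 and limma also called 0, with 1 and 6 at that level, but DESeq2 gave no adjusted p for 8 of the 24. Upf1, the central helicase of this pathway, had 42 and 34 against 23 and 29 counts (log2 fold change -0.44, edgeR adjusted p = 0.559). Of 27 genes of mTORC1 and of the control of pyrimidine tract mRNAs, Eif4e, the cap-binding protein, was called lower (log2 fold change -0.69, edgeR adjusted p = 0.0121), a call lost without Il10-EGFP- replicate 2 or Il10-EGFP+ replicate 1, and Larp1, which binds the tract, had -0.41 with an adjusted p of 0.144.

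Of 9 Myc network genes, Myc and Max were called lower, with log2 fold changes of -1.59 and -0.73, and the Max partners Mxd1 and Mxd3 higher, with 1.07 and 1.21. Myc had 27 and 19 counts against 7 and 7 (edgeR adjusted p = 0.0465). These 4 calls were 1 without Il10-EGFP- replicate 1 or Il10-EGFP+ replicate 2 and 0 without either of the other libraries. Of 12 other well-known long non-coding RNAs, Malat1 was called, in the opposite direction to Snhg15, with 1926 and 1829 against 2100 and 2529 counts (log2 fold change 0.40, edgeR adjusted p = 0.0277), and its adjusted p ran from 0.0529 to 0.349 with single libraries left out, so that the call was lost each time. Without Il10-EGFP+ replicate 1, Meg3 was called in its place. Meg3 stood at 6.74 on the log2 scale in that fit, and at 0.0 once Il10-EGFP+ replicate 2 was dropped instead. Its difference thus came from Il10-EGFP+ replicate 2 alone, and Meg3 was named after its values were seen.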

How the data were processed

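Sorted T cells, with 2 libraries for each state of the Il10 reporter, were measured by 3′ end sequencing (QuantSeq FWD) from 5 ng of RNA with 22 PCR cycles. The authors deposited unnormalized read counts by Ensembl identifier, which the BlueBee pipeline gave on GRCm38. The deposited rlog values are on the log2 scale and were made by the authors with DESeq2. Per the submitters' processing notes the tools include STAR 2.5.2a and HTSeq 0.6.0. Molecular identifiers served, by the methods and the labels, to assess duplicates and to remove bias from amplification, without a statement on whether this holds for the deposited counts. The annotation release and the strand option are not given in the sources used here. The study left out 1 more pair of replicates that stood apart in its principal components, which was not analysed here. The methods speak of biological replicate mice, but the labels do not tie a library to an animal, so p-values measure the spread between these samples, which may in part be technical. The study's methods name another RNA extraction kit than the labels.

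The main test took genes whose counts summed to at least 10 and used edgeR 4.0.16 under R 4.3.3 (TMM factors, glmQLFit, glmQLFTest), with p-values adjusted by the Benjamini-Hochberg method over all 9608 genes and a threshold of 0.05. CPM were scaled by the TMM factors, and the 95% intervals use the standard error from the F statistic. DESeq2 1.42.0, limma 3.58.1 on the rlog values, other scalings and filters, a replicate block and leaving out each library were alternatives. Symbols were lacking for 419 identifiers. Gene models came from GENCODE M21 and start windows from RefSeq, both on GRCm38. The host genes and all comparison lists were chosen with earlier results of these data known. Named genes are the listed hosts, up to 8 called members of each comparison list by smallest p, a few fixed members (Fbl, Nop56, Nop58, Dkc1, Ncl, Npm1, Upf1, Larp1 and Myc), and the 5 genes closest to the most abundant host, of which 1 is not reported here; neighbours were added after their values were seen.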

Additional observations from a re-analysis of the deposited data

How the results depend on the processing

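Of 135 log2 fold changes of the 9 host genes under the alternatives, 131 kept their direction. Some of these could not turn. The alternative of an adjusted p under 0.1 keeps the main fold changes, and adding the counts of Snora73b to Snhg3 bears on Snhg3 alone. The median over the hosts ran from -0.31 (library size only) to -0.13 (limma on rlog values). The reversed values were 0.033 for Gas5 without Il10-EGFP- replicate 2, 0.165 for Snhg6 and 0.206 for Snhg8 without Il10-EGFP- replicate 1, and 0.099 for Snhg8 without Il10-EGFP+ replicate 2. With single libraries left out, Gas5 ran from -0.108 to 0.033, Snhg6 from -0.463 to 0.165 and Snhg8 from -0.198 to 0.206. Snhg1 ran from -0.26 to -0.078 and Snhg5 from -0.555 to -0.207 in the same fits. The summed level gave a log2 ratio of -0.20, and -0.232 with library size only. The number of hosts called was 1, and it was 0 with DESeq2, 0 with limma, 2 at an adjusted p under 0.1, and 0 to 1 with single libraries left out.

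With the replicate number as a block, 3 hosts were called (Snhg15, and Snhg3 and Epb41l4aos with an adjusted p of 0.0418 each) and 1 nonsense-mediated decay gene. The deviations from the group means of libraries with the same number were correlated at 0.0145 over 6781 genes, and no source says that libraries with the same number share an animal, although the methods speak of a replicate pair, so that the numbers were not shown to pair the samples.

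With DESeq2 the calls fell from 1 to 0 of the ribosomal protein genes, from 22 to 10 of the nucleolar genes, from 7 to 3 of the snoRNP genes, from 1 to 0 of the other non-coding hosts, from 8 to 4 of the protein-coding hosts, from 1 to 0 of the mTORC1 genes and from 4 to 1 of the Myc network genes. DESeq2 gave no adjusted p for 7 nucleolar, 3 snoRNP, 6 protein-coding host, 9 mTORC1, 3 Myc network and 2 ribosomal protein genes. These could not be called with it. With limma the calls were 0 for the ribosomal protein genes, the other non-coding hosts and the mTORC1 genes, and 1 for the Myc network. With single libraries left out, the calls ran from 0 to 1 for the ribosomal protein genes, the other non-coding hosts, the mTORC1 genes, the Myc network and the other long non-coding RNAs, from 10 to 15 for the nucleolar, from 3 to 4 for the snoRNP and from 4 to 6 for the protein-coding host genes; a lone library was then assumed to vary like the other group. Of the other long non-coding RNAs 2 were called with TMM without the 3 genes with the most counts, with no filter, with bias-adjusted deviances or with the counts of Snora73b added to Snhg3, a setting chosen after seeing the data, and 3 at an adjusted p under 0.1. The cause was not tested for any of these changes. With 2 libraries a group and at most 730330 counts a library, the intervals of Gas5, Snhg1, Snhg5, Snhg6, Snhg8 and Snhg12 include 0, which does not show that their levels were alike.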
